A study of Mus musculus with 6 samples.

Results

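The miR-216/miR-217 and miR-148/miR-152 miRNAs were followed in small extracellular vesicles (sEVs) released by cultured mouse islets. Their entries were taken by name from the table of miRNA levels, as every arm of miR-216a, miR-216b, miR-216c, miR-217, miR-148a, miR-148b and miR-152 that it lists. This gave 11 of 718 entries, 5 of miR-216/miR-217 and 6 of miR-148/miR-152. Of these 11 entries, 7 were detected in every library and 8 passed the low-count filter of the edgeR alternative. The arms miR-216c-5p, miR-216c-3p and miR-217-3p were not analysed here.

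The small RNA libraries compared were 3 of nid-sEVs from islets of mice on the normal chow diet (NCD) and 3 of aid-sEVs from islets of mice on the high-fat diet (HFD). All donors were labelled as strain C57/B6J and genotype WT, the source as islet and the cell type as exosomes, so the groups differed in diet alone by their labels. The study chose 9 weeks of HFD for the compensatory phase in general, and its diet series started at 8 weeks of age. Neither the age of the donors of these libraries nor the pooling of animals was given in the sources used here. The sEVs were collected over 48 hours of islet culture without serum, and 5 ng of their RNA went into a library. Nothing states that the 3 libraries of a group came from separate mice, so p-values measure the spread between these libraries, which may be technical.

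A miRNA is cut from a hairpin as a duplex with a 5p and a 3p arm, and 1 arm usually dominates. The loaded arm finds target transcripts mainly through its seed, bases 2 to 8 from the 5′ end. The miR-216a, miR-216b and miR-217 hairpins are neighbours in the genome and are known as miRNAs of the acinar cells, which make digestive enzymes in the exocrine pancreas around the islets. The miR-148/miR-152 family is expressed more broadly. In this family miR-148a is abundant in pancreas and liver, and the family is known for repressing the DNA methyltransferase DNMT1. In β cells, miR-148 has been linked to insulin transcription.

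The mature sequences of the 6 dominant arms are shown because the reads of this comparison rest on them and because their seeds separate the groups. They come from RefSeq on GRCm38.p6, in which all 11 entries had a match, and capitals mark the seed.
mmu-miR-216a-5p: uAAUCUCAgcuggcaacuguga
mmu-miR-216b-5p: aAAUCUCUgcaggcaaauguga
mmu-miR-217-5p: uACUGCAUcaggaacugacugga
mmu-miR-148a-3p: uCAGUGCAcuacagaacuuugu
mmu-miR-148b-3p: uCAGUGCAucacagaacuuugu
mmu-miR-152-3p: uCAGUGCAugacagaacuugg

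The arms miR-148a-3p, miR-148b-3p and miR-152-3p shared the seed CAGUGCA, and no other listed entry had it. Counted from 1 at the 5′ end, miR-148b-3p differed from miR-148a-3p by C9U and U10C. Over the 21 bases of miR-152-3p, it differed from miR-148a-3p by C9U, U10G and U20G. The lower arms miR-148a-5p and miR-148b-5p shared another seed, AAGUUCU. In contrast, the 3 arms of the acinar cluster had 3 seeds. Between miR-216a-5p and miR-216b-5p 18 of 22 positions were identical, and the substitution A8U fell inside the seed. How reads that fit more than 1 of these sequences were assigned is not given in the sources used here.

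In GRCm38, Mir216b lies on chromosome 11 from 28746191 to 28746276, Mir216a from 28757012 to 28757083 and Mir217 from 28763728 to 28763835, all on the plus strand within 17645 bases. Mir216a and Mir217 sit in introns of the long noncoding RNA gene Gm12082, and no annotated gene other than Mir216c on the opposite strand overlaps Mir216b. The miR-148/miR-152 hairpins are scattered. Mir148a lies on chromosome 6 from 51269812 to 51269910 outside annotated genes. Mir148b lies in an intron of Copz1 on chromosome 15, from 103285125 to 103285221, and Mir152 in an intron of Copz2 on chromosome 11, from 96850393 to 96850465. Both host genes encode coat proteins of vesicle transport.

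Levels were deposited as RPM, in which reads are divided by a total for their library, and all values were whole multiples of the RPM of 1 read. The recovered totals ran from 50534 to 129152 reads in nid-sEVs and from 122266 to 519315 reads in aid-sEVs. A floor of 3 reads per library therefore stood at 23.2 to 59.4 RPM in nid-sEVs and 5.78 to 24.5 RPM in aid-sEVs. Nid-sEV replicate 1 stood apart in that 33.4% of its reads fell on entries lacking a miRBase name, against at most 9.45% elsewhere. The islet label was met by miR-375-3p, the most typical miRNA of endocrine islet cells, with 56584 to 346480 RPM in nid-sEVs and 136424 to 163590 RPM in aid-sEVs. Because PCR copies were not told from separate molecules, all intervals and floors hold counting error alone.

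The question was whether HFD changed these miRNAs in islet sEVs. For each of the 718 entries log2(RPM + 1) was tested between the groups with limma, and a call needed a Benjamini-Hochberg adjusted p under 0.05 with a log2 fold change over 1 in size. miR-148a-3p, the leading member, was called lower in aid-sEVs, and miR-148b-5p was called higher at a level near the floor. These are 2 of 11 members, and calls in either direction made up 17.4% of all entries, so the count is near the background. The same 2 members had an unadjusted p under 0.05, as did 27.9% of all entries. The other 9 members, all those of the acinar cluster among them, were not called.

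Over the 11 members the median log2 fold change was -0.49, and 8 of 11 were below 0, as were 34.5% of all entries. Of the 7 members detected in every library, all 7 had log2 fold changes below 0, as did 56.2% of the 219 entries detected in every library. Their median log2 fold change was -1.33, beside -0.21 for those 219 entries and 1.11 for all 718 entries. Values of low entries are moved by depth and by the pseudocount, so the 219 are the closer comparison for these 7. After division by TMM factors the median of the 219 moved from -0.21 to 0.29, and the 7 members detected in every library moved with it. Of the members at 0 in some libraries, miR-152-5p also moved with it, from 2.57 to 3.06. The other such members moved less: miR-148b-5p from 4.19 to 4.42, miR-216a-3p from 1.23 to 1.39 and miR-216b-3p from -0.28 to -0.17.

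**Figure D1:**
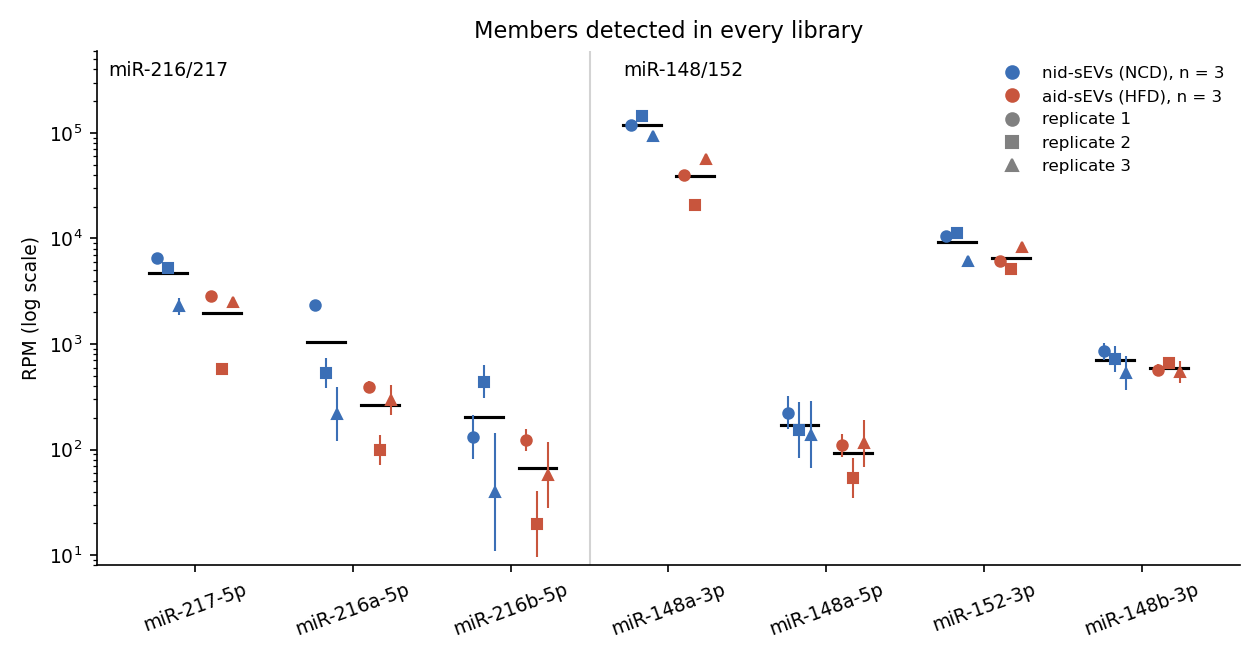
RPM on a log scale of the 7 members detected in every library, with 1 point per library, a black line at the group mean of 3 libraries and vertical bars for the 95% Wilson interval. The 3 aid-sEV points of miR-148a-3p, from 20886 to 56336 RPM, lie below the 3 nid-sEV points, while the groups of miR-217-5p, miR-216a-5p, miR-216b-5p, miR-152-3p and miR-148b-3p overlap.

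miR-148a-3p carried most of the reads of the members. It had 118326, 144828 and 93145 RPM in nid-sEV replicates 1, 2 and 3, from 15282, 9511 and 4707 reads. In aid-sEV replicates 1, 2 and 3 it had 40014, 20886 and 56336 RPM, from 20780, 7357 and 6888 reads. All aid-sEV libraries were thus below all nid-sEV libraries, as was the case for 7.52% of all entries and 20.1% of the 219 detected in every library. Nid-sEV replicate 3 and aid-sEV replicate 3 came closest, with 95% Wilson intervals of 90642 to 95710 RPM and 55058 to 57643 RPM that did not overlap. Among all entries of a library it ranked 2 in every nid-sEV library and 7, 14 and 3 in aid-sEVs.

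The mean level of miR-148a-3p was 118766 ± 25844 RPM in nid-sEVs and 39079 ± 17744 RPM in aid-sEVs (SD, n = 3), which is 3.04 times as high in nid-sEVs. On the log2 scale limma put the difference at -1.69 with an SE of 0.41 and an adjusted p of 0.037. Calls in this direction made up 1.81% of all entries and 4.11% of the 219 detected in every library. With TMM factors the log2 fold change of miR-148a-3p was -1.20 with an adjusted p of 0.058 by limma, so the call was lost. Relative to the median of the 219, it was -1.49 with RPM as deposited and -1.49 with TMM factors. These factors move miR-148a-3p and that median alike, so the match of the 2 values carries no evidence of its own. The direction held in all 16 alternatives, with log2 fold changes from -2.02 to -1.12, but the call held in 7 of them and the adjusted p ranged from 0.0085 to 0.16. It was called by edgeR with a filter and by DESeq2, which called 28.2% and 16.1% of the entries they tested, and not by edgeR without a filter, which called 8.77%. Leaving out 1 library ended the call for 5 of the 6 libraries, all except aid-sEV replicate 3, with adjusted p from 0.060 to 0.12 by limma.

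The passenger arm of the same hairpin, miR-148a-5p, was far less abundant. It had 225, 152.3 and 139 RPM in nid-sEVs, from 29, 10 and 7 reads, and 110, 53.9 and 115 RPM in aid-sEVs, from 57, 19 and 14 reads. The groups did not overlap, as was the case with lower aid-sEV levels for 7.52% of all entries and 20.1% of the 219. The Wilson intervals did overlap, since nid-sEV replicate 3 spanned 67.1 to 286 RPM. In limma this gave a log2 fold change of -0.93 with an SE of 0.60 and an adjusted p of 0.33. The 3p arm had 527, 951 and 672 times the level of the 5p arm in the nid-sEV libraries and 365, 387 and 492 times in aid-sEVs.

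The family members with the seed of miR-148a-3p did not pass the test. miR-152-3p, the second most abundant member, had 10662, 11284 and 6075 RPM in nid-sEVs and 6089, 5175 and 8383 RPM in aid-sEVs, each from at least 307 reads. Nid-sEV replicate 3 lay among the aid-sEV libraries. The limma estimate for miR-152-3p was -0.49 on the log2 scale with an SE of 0.38 and an adjusted p of 0.41, and the value was 0.0088 with TMM factors and -0.77 without nid-sEV replicate 3. miR-148b-3p had 852, 716 and 534 RPM in nid-sEVs and 572, 661 and 540 RPM in aid-sEVs. Its libraries were the most even of the 7 members detected in every library, with 1.59 times between the highest and the lowest. The limma estimate for miR-148b-3p was -0.22 with an SE of 0.41 and an adjusted p of 0.77, which turned to 0.27 with TMM factors and to 0.25 with edgeR without a filter.

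Of the summed reads of the 3 miRNAs of 1 seed, the part of miR-148a-3p was lower in each aid-sEV library than in any nid-sEV library. It was 91.1%, 92.3% and 93.4% in nid-sEV replicates 1, 2 and 3 and 85.7%, 78.2% and 86.3% in aid-sEV replicates 1, 2 and 3. The share of miR-152-3p was 8.21%, 7.19% and 6.09% in nid-sEVs and 13.0%, 19.4% and 12.8% in aid-sEVs. That of miR-148b-3p stayed below 1% in nid-sEVs, with 0.656%, 0.456% and 0.536%, and was 1.23%, 2.48% and 0.827% in aid-sEVs. The groups of libraries did not overlap for any of the 3 shares, which were described with no test. No background was computed for such shares. For log2 ratios between entries detected in every library, the groups did not overlap for 38.7% of all pairs. Nothing particular to the family is therefore read from the shares. These shares add up to the whole, so a lower share of 1 miRNA raises the others.

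**Figure D2:**
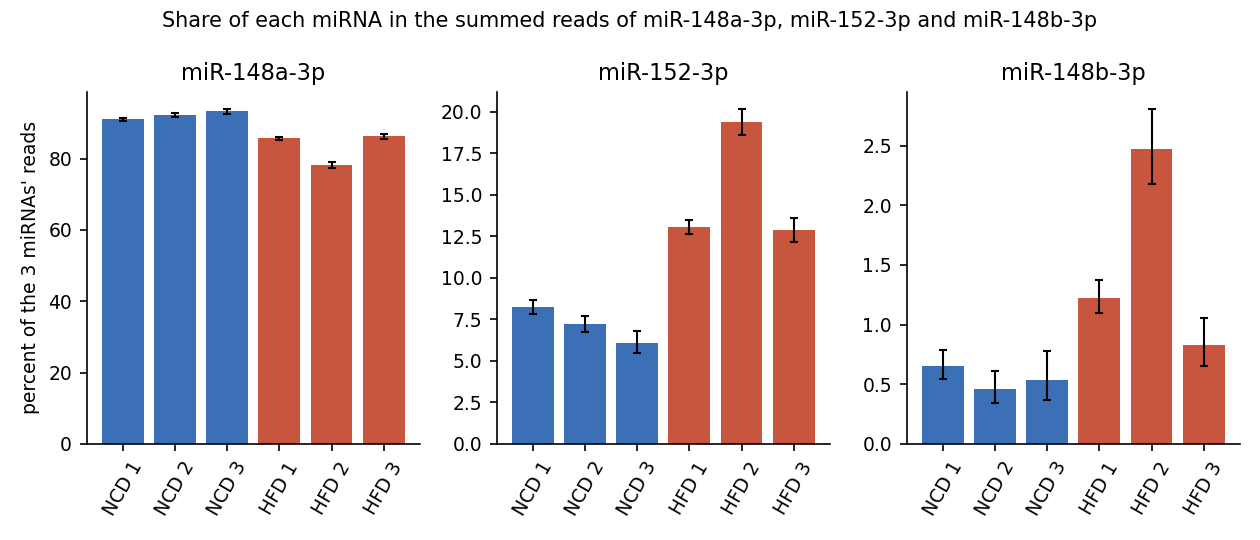
Percent of the summed reads of miR-148a-3p, miR-152-3p and miR-148b-3p that each takes in each library, with NCD (nid-sEV) libraries in blue, HFD (aid-sEV) libraries in red and 95% Wilson intervals as error bars. The vertical axes start at 0 and differ between panels. The share of miR-148a-3p is 91.1% or more in nid-sEVs and 86.3% or less in aid-sEVs. For log2 ratios between entries detected in every library, the groups did not overlap for 38.7% of all pairs.

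Ratios between 2 members, taken from log2(RPM + 1), depend on how a library is scaled only through the added 1. They were tested for the 21 pairs of the 7 members detected in every library. With 3 libraries against 3, a two-sided exact permutation test cannot give a p below 0.10, and the smallest adjusted p over the 21 pairs was 0.53, so no pair passed. The groups did not overlap for 4 pairs, all within the miR-148/miR-152 family, and they overlapped for all 12 pairs of a miR-216/miR-217 with a miR-148/miR-152 entry. Over all pairs of the 219 entries detected in every library 38.7% did not overlap, so 4 of 21 is no more than the background, and nothing particular to the family is read from it. The log2 ratio of miR-148a-3p to miR-152-3p was 3.70 ± 0.23 in nid-sEVs and 2.49 ± 0.42 in aid-sEVs (SD, n = 3), a difference of -1.21 (exact permutation p = 0.10). The log2 ratio of miR-148a-3p to miR-148b-3p was 7.41 ± 0.27 and 5.94 ± 0.88, a difference of -1.47 with the same p. The remaining 2 pairs were miR-148a-3p with its own 5p arm, which differed by -0.77, and miR-148a-5p with miR-148b-3p, which differed by -0.70. With a pseudocount of 10 the difference of miR-148a-5p and miR-148b-3p was -0.63 (exact permutation p = 0.20). Without aid-sEV replicate 2, the difference of miR-148a-5p and miR-148b-3p was -0.27, while those of miR-148a-3p to miR-152-3p and to miR-148b-3p were -0.97 and -0.99.

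The most abundant miRNA of the acinar cluster was miR-217-5p, known to repress the deacetylase SIRT1. It had 6504, 5299 and 2276 RPM in nid-sEVs, from 840, 348 and 115 reads, and 2854, 579 and 2511 RPM in aid-sEVs, from 1482, 204 and 307 reads. Nid-sEV replicates 1 and 2 were above all aid-sEV libraries, and nid-sEV replicate 3 was among them. Its mean level was 4693 ± 2178 RPM and 1981 ± 1226 RPM (SD, n = 3), and limma estimated a log2 difference of -1.41 with an SE of 0.76 and an adjusted p of 0.26. With single libraries left out, the estimate ran from -1.87 without nid-sEV replicate 3 to -0.68 without aid-sEV replicate 2.

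miR-216a-5p had the widest range over all 6 libraries among the 7 members detected in every library, with 23.8 times from lowest to highest. It had 2362, 533 and 218 RPM in nid-sEVs, from 305, 35 and 11 reads, and 393, 99.4 and 294 RPM in aid-sEVs, from 204, 35 and 36 reads. The nid-sEV libraries spanned 10.8 times from lowest to highest and enclosed 2 of the 3 aid-sEV libraries. Limma gave -1.52 on the log2 scale with an SE of 1.02 and an adjusted p of 0.35, and the value was -0.59 without nid-sEV replicate 1, -0.93 without aid-sEV replicate 2 and -2.31 without nid-sEV replicate 3.

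miR-216b-5p was lower still, with 132, 442 and 39.6 RPM in nid-sEVs, from 17, 29 and 2 reads. In aid-sEVs it had 123, 19.9 and 57.3 RPM, from 64, 7 and 7 reads, and the groups overlapped. The value of nid-sEV replicate 3 is under its floor of 59.4 RPM. For miR-216b-5p limma gave -1.33 with an SE of 1.13 and an adjusted p of 0.47, and the estimate was -0.46 without nid-sEV replicate 2, -0.65 without aid-sEV replicate 2 and -2.19 without nid-sEV replicate 3. Within each diet its libraries spanned 11.2 times in nid-sEVs and 6.20 times in aid-sEVs. The lowest values came from 2 and 7 reads, so these spans are not ranked against those of miR-216a-5p.

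The 3 hairpins of the cluster did not keep a fixed ratio of mature reads. In nid-sEV replicates 1, 2 and 3, miR-217-5p had 2.75, 9.94 and 10.5 times the RPM of miR-216a-5p, and in aid-sEV replicates 1, 2 and 3 it had 7.26, 5.83 and 8.53 times. The RPM of miR-216a-5p was 17.9, 1.21 and 5.50 times that of miR-216b-5p in nid-sEVs and 3.19, 5.0 and 5.14 times in aid-sEVs. The spread of both ratios was thus wider among the nid-sEV libraries. In nid-sEV replicate 1 the Wilson interval of miR-216a-5p, 2111 to 2641 RPM, was far above that of miR-216b-5p, 82.2 to 211 RPM, whereas in nid-sEV replicate 2 the intervals of 383 to 741 RPM and 307 to 634 RPM overlapped.

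Of the remaining 4 entries, miR-148b-5p, miR-216a-3p and miR-216b-3p were at or near the floors in most libraries. miR-152-5p was above the floor in 5 libraries and at 0 in nid-sEV replicate 3. miR-148b-5p had 0 reads in each nid-sEV library and 7, 4 and 4 reads in aid-sEVs, at 13.5, 11.4 and 32.7 RPM. Although limma called it higher, with an adjusted p of 0.023 where 15.6% of all entries were called higher, its mean of 19.2 RPM in aid-sEVs lies under the floor of every nid-sEV library. A difference was therefore not detectable at this depth, and the value that limma fitted is set by the pseudocount and is neither a fold nor a bound. All aid-sEV libraries were above all nid-sEV libraries for 24.2% of all entries. miR-152-5p had 69.7, 152.3 and 0 RPM in nid-sEVs and 125, 119 and 147 RPM in aid-sEVs (adjusted p = 0.40 by limma), and its estimate of 2.57 fell to 0.33 without nid-sEV replicate 3, the library at 0. miR-216a-3p had 8, 0 and 0 reads in nid-sEVs and 24, 0 and 2 in aid-sEVs, and miR-216b-3p had at most 2 reads in any library, so neither could be compared.

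**Figure D3:**
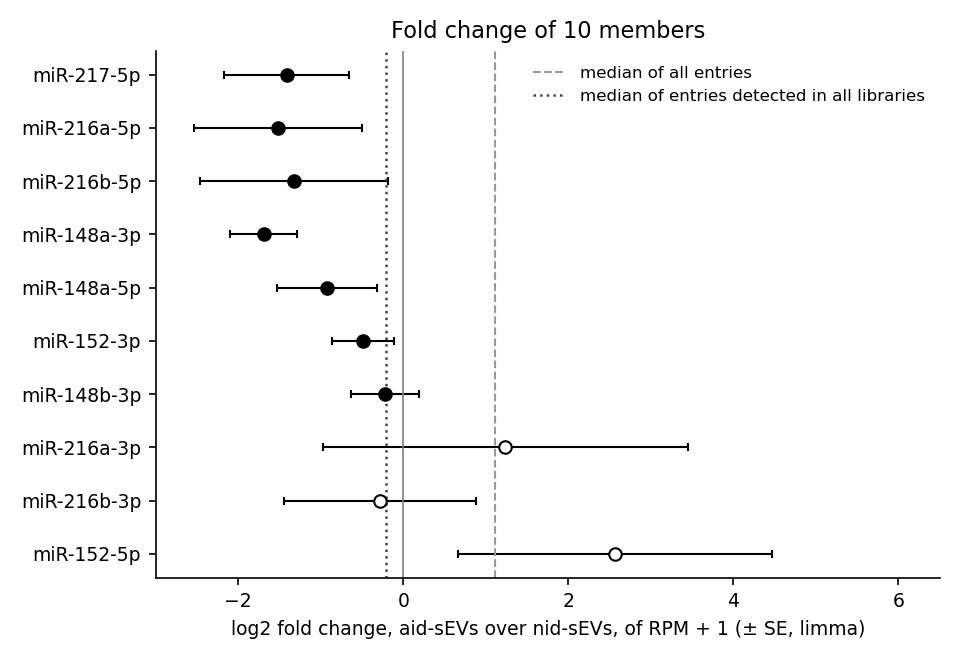
Log2 fold change of RPM + 1, aid-sEVs over nid-sEVs, of 10 members with the SE from limma (n = 3 libraries per group), without miR-148b-5p, which had 0 reads in all nid-sEV libraries. Filled points were detected in every library and lie between -1.69 and -0.22, open points were at 0 reads in at least 1 library so that their values depend on the added 1, and vertical lines mark the medians of all 718 entries (1.11) and of the 219 entries detected in every library (-0.21).

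Both groups of members were then set side by side in each library. The summed miR-148/miR-152 entries took 13.0%, 15.7% and 9.99% of the reads of nid-sEV replicates 1, 2 and 3 and 4.69%, 2.69% and 6.56% of those of aid-sEV replicates 1, 2 and 3. The summed miR-216/miR-217 entries took 0.907%, 0.627% and 0.253% in nid-sEVs and 0.342%, 0.0698% and 0.288% in aid-sEVs. The groups of libraries did not overlap for the first sum, which is mostly miR-148a-3p, and overlapped for the second. Among single entries, the aid-sEV libraries were all lower for 7.52% of all entries and 20.1% of the 219 detected in every library. As the members were chosen with earlier results known, no p is given for these sums.

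The share of the acinar cluster in the members' reads overlapped between the groups. The acinar cluster took 6.51%, 3.84% and 2.47% of the members' reads in nid-sEV replicates 1, 2 and 3 and 6.79%, 2.53% and 4.21% in aid-sEV replicates 1, 2 and 3. The mean share was 4.28 ± 2.06% in nid-sEVs and 4.51 ± 2.15% in aid-sEVs (SD, n = 3), so the difference of 0.235 percentage points was smaller than the spread between libraries. With single libraries left out, the difference ran from -0.91 to 1.35 percentage points. The log2 ratio of miR-148a-3p to miR-217-5p was 4.77 ± 0.58 in nid-sEVs and 4.49 ± 0.68 in aid-sEVs, a difference of -0.28 (exact permutation p = 0.70). Since miR-148a-3p makes up most of its sum, this balance is mainly that of miR-148a-3p to miR-217-5p. The log2 ratios of miR-152-3p and miR-148b-3p to the 3 acinar miRNAs differed the other way, by 0.84 to 1.30, with overlapping groups and exact permutation p from 0.20 to 0.50. A p that misses the threshold does not show that both changed alike.

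**Figure D4:**
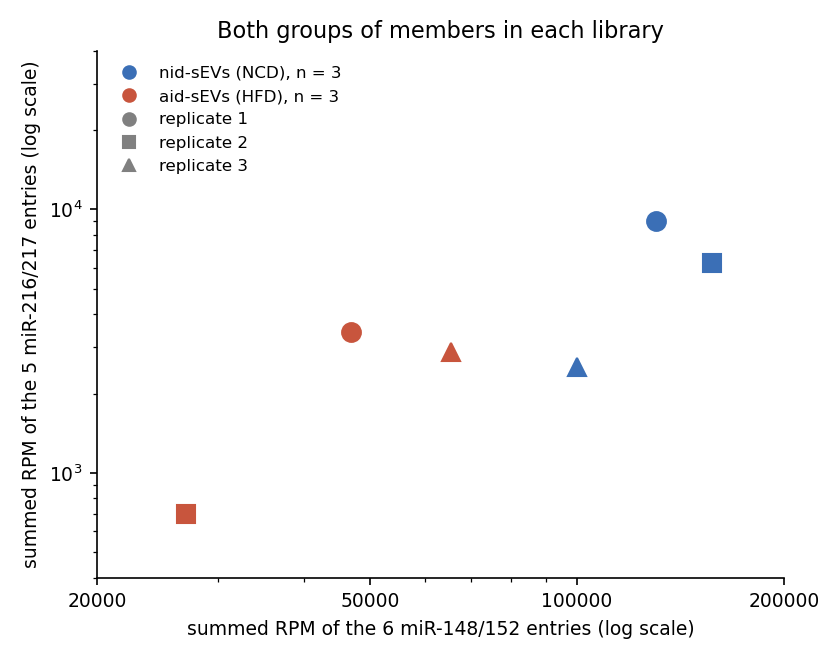
Summed RPM of the 5 miR-216/miR-217 entries against the summed RPM of the 6 miR-148/miR-152 entries in each library, both on log scales. Aid-sEV replicate 2 is lowest on both axes (698 and 26907 RPM), and the horizontal axis separates the 3 aid-sEV libraries, at 65554 RPM or less, from the 3 nid-sEV libraries, at 99893 RPM or more.

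Aid-sEV replicate 2 was the lowest of all 6 libraries for miR-217-5p, miR-216a-5p, miR-216b-5p, miR-148a-3p, miR-148a-5p and miR-152-3p, but the highest aid-sEV library for miR-148b-3p. Without it, miR-148a-3p had a log2 fold change of -1.30 and an adjusted p of 0.060 by limma. This library was also the lowest for the summed markers of other cells. Ductal and other epithelial markers summed to 1962 RPM there and to 3751 and 4171 RPM in aid-sEV replicates 1 and 3. Its endocrine markers, with 182402 RPM, lay between those of aid-sEV replicates 3 and 1, at 164846 and 186147 RPM.

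Markers of the other cell types of an islet preparation were examined beside the members, because miR-216/miR-217 is known from acinar cells. The epithelial list covers ductal and other epithelium, so it was not taken to mark cells outside the islets. All 5 epithelial markers were listed, with sums of 5679 to 10233 RPM in nid-sEVs and 1962 to 4171 RPM in aid-sEVs, and 2 of them, miR-200b-3p and miR-200c-3p, were called lower. All 8 blood and liver markers were listed, with sums of 5026 to 10817 RPM in nid-sEVs and 443 to 1583 RPM in aid-sEVs, and 3, miR-486a-5p, miR-150-5p and miR-122-5p, were called lower. Calls in this direction made up 1.81% of all entries and 4.11% of the 219 detected in every library. In both lists no aid-sEV sum reached the nid-sEV sums. Among single entries, the aid-sEV libraries were all lower for 7.52% of all entries and 20.1% of the 219. No such share was computed for sums. The median log2 fold changes of these lists were -1.68 and -2.99.

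The 5 mesenchymal markers summed to 5383 to 24080 RPM in nid-sEVs and 4480 to 11623 RPM in aid-sEVs, and the 2 endothelial markers to 989 to 3717 RPM and 679 to 1325 RPM. These sums overlapped between the groups, and 0 of the 5 and 0 of the 2 were called. The median log2 fold change was -1.49 for the mesenchymal list and -1.04 for the endothelial list, so both lay below 0 as well. Of the 5 endocrine islet markers 1, miR-7b-5p, was called higher, as were 15.6% of all entries. The endocrine sums of 74741 to 360886 RPM in nid-sEVs enclosed the 164846 to 186147 RPM of aid-sEVs, and the median log2 fold change of this list was 0.079. Nid-sEV replicate 3, the lowest nid-sEV library for miR-217-5p and miR-216a-5p, was also the lowest nid-sEV library for the epithelial, mesenchymal, endothelial and blood and liver sums and the highest for the endocrine sum. No marker of any list was at 0 in all 3 libraries of a group. The endocrine miR-204-5p, the mesenchymal miR-214-3p and the blood markers miR-223-3p, miR-142a-3p and miR-142a-5p were at 0 in at least 1 library. The part of these markers in the levels of the members was not tested. Fewer sEVs from 1 cell type and less of a miRNA per sEV cannot be told apart in these libraries.

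**Figure D5:**
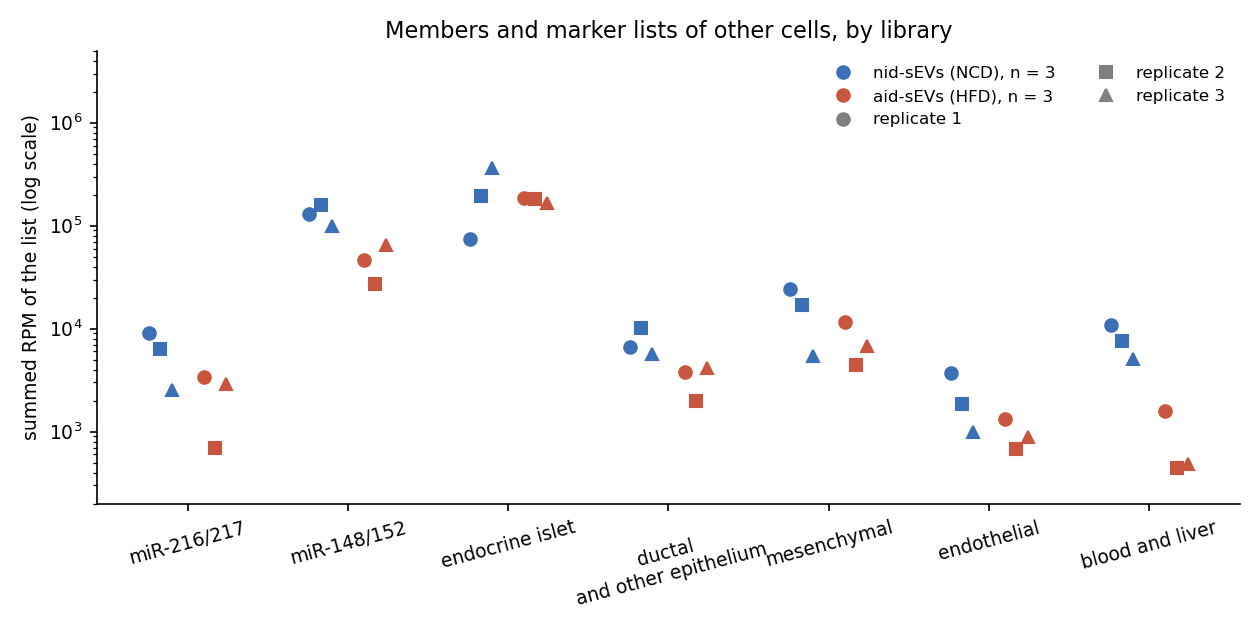
Summed RPM on a log scale of the miR-216/miR-217 entries, the miR-148/miR-152 entries and 5 marker lists of other cells in each library. The miR-148/miR-152, epithelial and blood and liver sums of the 3 aid-sEV libraries lie below those of the 3 nid-sEV libraries, while the miR-216/miR-217, endocrine, mesenchymal and endothelial sums overlap.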

How the data were processed

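Small RNA libraries of islet sEVs were grouped by their titles, 3 per diet. The authors deposited 1 table in which the level of each entry is given as RPM, computed from reads processed by a sequencing company. Per the labels, the submitters' processing notes name fastp 0.23.0, HISAT2 2.2.1 and GRCm38. The miRNA reference and the filters are not given in the sources used here. The deposited columns of the authors' own comparison (fold changes, abundance, p-values and calls) were not used. Division by the smallest RPM above 0 gave whole reads for 100% of the values (tolerance 0.001 reads).

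Levels were compared with limma 3.58.1 (lmFit, eBayes with trend) in R 4.3.3 on log2(RPM + 1), without a filter or a block, with Benjamini-Hochberg adjustment over all 718 entries. The alternatives were pseudocounts of 0.1 and 10, a mean of at least 10 RPM, TMM factors, centring, miRBase-named entries alone, a block for the replicate number, omission of single libraries, and edgeR 4.0.16 and DESeq2 1.42.0 on the recovered reads. Tested on simulated reads, limma made more false calls than its threshold allows, all among entries undetected in at least 1 library. The simulation gave every entry the same dispersion and drew the libraries independently. It therefore does not show how often calls in these libraries are false, also for entries detected in every library. Named miRNAs are all members, the marker lists and, for each member detected in every library, the 3 entries of most similar profile. The members and lists were chosen with earlier results of these data known. Shares have 95% Wilson intervals. Sequences come from RefSeq and gene positions from GENCODE M21.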

Additional observations from a re-analysis of the deposited data

How the results depend on the processing

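The call of miR-148a-3p was lost with a pseudocount of 10 (log2 fold change -1.69), TMM factors (-1.20), the replicate block (-1.69, adjusted p = 0.11 by limma) and edgeR without a filter (-1.12), and its values ran from -2.02 to -1.30 when each library was left out. That of miR-148b-5p was lost with a pseudocount of 10 (1.47), the replicate block (4.19) and edgeR without a filter (5.0), and without nid-sEV replicate 2 (adjusted p = 0.078 by limma) or nid-sEV replicate 3 (0.054). Its fitted values ran from 3.74 to 4.47 with single libraries left out and reached 7.43 with a pseudocount of 0.1. With 0 reads in nid-sEVs they are set by the pseudocount and are no folds or bounds. DESeq2 gave no adjusted p for it, and edgeR's filter and that on mean RPM removed it. The sign turned for miR-148b-3p with TMM factors (0.27) and with edgeR without a filter (0.25), for miR-152-3p with TMM factors (0.0088) and for miR-216a-3p with DESeq2 (-0.16). For miR-216b-3p, with at most 2 reads, it ran from -1.04 to 0.76 with single libraries left out. The difference in the log2 ratio of miR-148a-3p ran from -0.62 to 0.058 to miR-217-5p, from -1.09 to 0.45 to miR-216a-5p and from -1.08 to 0.33 to miR-216b-5p over the alternatives, which were added after seeing the data. No other member was called in any alternative, and the cause of the lost calls was not tested.

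Over all entries, 112 were called higher and 13 lower in aid-sEVs. These counts were 62 and 9 with a pseudocount of 10, 69 and 9 with the filter on mean RPM, 110 and 8 with a pseudocount of 0.1, 124 and 3 with TMM factors, 48 and 21 with edgeR's filter, 56 and 7 without it, and 65 and 50 with DESeq2. With single libraries left out they ran from 33 to 150 and from 1 to 26. With the replicate block limma called 0 higher and 0 lower, with 187 entries at an unadjusted p under 0.05. Same-numbered libraries did not deviate together (correlations of -0.054, 0.13 and -0.11 across 219 entries), and nothing states that they are paired. Entries under the nid-sEV floors of 23.2 to 59.4 RPM cannot be compared at this depth.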

Other observations

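The entries whose profile over the 6 libraries lay closest to each member were found by the root mean square difference of log2(RPM + 1), each profile centred on its own mean, among 171 miRBase-named entries detected in every library, the members left out. This is a description with no test. All entries were measured in the same 6 libraries, whose totals ran from 50534 to 519315 reads. The closest to miR-148a-3p were miR-3074-5p (0.30), the epithelial miR-200b-3p (0.31) and miR-540-5p (0.32), where the median of all 171 was 1.30. For miR-217-5p they were miR-540-5p (0.34), miR-802-5p (0.49) and miR-10a-5p (0.50), and for miR-148a-5p they were miR-136-3p (0.32), miR-10a-5p (0.37) and miR-540-5p (0.38). For miR-216a-5p the closest was the endothelial miR-126a-5p (0.50), followed by miR-100-5p (0.66) and miR-540-5p (0.69), with its cluster neighbour miR-217-5p, a member, between the first and the second (0.65), and for miR-216b-5p it was miR-145a-3p (0.46), followed by miR-146a-5p (0.71) and miR-200a-3p (0.72). By contrast, miR-152-3p lay closest to the endocrine miR-7a-5p (0.22), miR-24-3p (0.23) and miR-30d-5p (0.26), and miR-148b-3p to let-7i-5p (0.15), miR-7a-5p (0.20) and miR-30d-5p (0.25). Among the members themselves, miR-148a-3p was closest to its own 5p arm, miR-148a-5p (0.48). The acinar miR-216a-5p (0.999) and miR-216b-5p (0.990) lay further from miR-148a-3p than miR-152-3p (0.66) and miR-148b-3p (0.91), which share its seed. Of the acinar miRNAs, miR-217-5p alone (0.54) lay closer to miR-148a-3p than both of these family members. For miR-217-5p the difference was also smaller to miR-148a-3p (0.54) than to miR-216a-5p (0.65) and miR-216b-5p (0.76), its neighbours on chromosome 11. miR-216b-5p had 2 reads in nid-sEV replicate 3 and 7 in each of aid-sEV replicates 2 and 3. miR-216a-5p had 11 reads in nid-sEV replicate 3. Counting error widens the differences of such low entries, and its part in them was not tested.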
